A study of Homo sapiens with 2 samples.

Results

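SR proteins and heterogeneous nuclear ribonucleoproteins (hnRNPs) are the 2 large groups of RNA-binding proteins that steer pre-mRNA splicing, and their genes were examined here in prostate carcinoma cells. Members were all genes of the deposited matrices whose symbol was SRSF followed by digits, or began with HNRNP, antisense and pseudogene symbols excluded, with 100 or more unique molecular identifiers (UMIs, each a counted RNA molecule) over both libraries. Of 37 symbols of that form, 31 reached the floor, 11 named SRSF and 20 named HNRNP, among 12764 genes at or above the floor and 36601 genes in the matrices. The 6 below it were SRSF12 with 39 UMIs in LNCaP_FGC and 5 in LNCaP_C4-2B, HNRNPA1L2 with 32 and 18, HNRNPCL1 with 1 in each, and HNRNPCL2, HNRNPCL3 and HNRNPCL4 with 0. The member nearest the floor was HNRNPLL, with 534 and 391 UMIs.

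The libraries come from single-cell RNA-Seq of 2 untreated cell lines, both grown in RPMI1640 with 10% FBS and 1% Pen/Strep. LNCaP_FGC is the parental line, a human lymph node prostate carcinoma line that was never cloned and is heterogeneous. LNCaP_C4-2B is a castration-resistant strain derived from LNCaP by passage in mice. Each line gave 1 library, the 2 libraries carry different batch labels, and strain and batch therefore cannot be told apart.

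Each library held 1850 cells. LNCaP_FGC had 35150013 UMIs and LNCaP_C4-2B had 35149989, after the authors had thinned both to the same mean per cell, and no cell barcode was shared. Luminal prostate markers were present in both. KLK3 was at 781 and 2770 CPM (UMIs scaled to a common library total) and KRT18 at 244 and 742 CPM. Of the 10 luminal markers listed, 5 were higher and 3 lower in LNCaP_C4-2B by the 1.5-fold limit described further on. The shares among all genes tested were 22.8% and 22.3%. KRT5, TP63, PTPRC, CD3E, COL1A2, DCN and CDH5 were at 0 in both libraries. The summed level of the whole lists was 0.939 and 0.626 CPM for basal, 5.63 and 0.910 CPM for fibroblast, 0.171 and 0.0853 CPM for immune, and 3.56 and 1.62 CPM for endothelial and erythroid markers. With 1 library per line there was no replicate spread, so no p-value is given and every interval covers counting error only.

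SR proteins carry RNA recognition motifs and a tail rich in arginine and serine, bind exonic enhancers and recruit U1 and U2 factors to nearby splice sites. The hnRNP proteins coat nascent transcripts and often keep exons out, by binding sequences such as G tracts (HNRNPF and HNRNPH1), C-rich stretches (HNRNPK), CA repeats (HNRNPL) or U tracts (HNRNPC). Members of both groups also act in mRNA export, stability and chromatin, and dividing cells use them to process large amounts of new RNA.

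Promoter windows from RefSeq (GRCh38.p14, 250 bases before to 50 bases after each annotated start) were found for 29 of the 31 members, all except HNRNPA1 and SRSF2. Those shown are the 150 bases before the start of genes that represent the patterns described further on. HNRNPAB (chr5:178204383-178204532, plus strand) and SRSF10 (chr1:23980328-23980477, minus strand) were counted as higher in S in both libraries. HNRNPAB was also counted as higher in G2M in LNCaP_FGC. SRSF3 (chr6:36594212-36594361, plus strand) was counted as higher in G2M in both libraries, and SRSF8 (chr11:95066727-95066876, plus strand) as higher in G1. The highest and the lowest ratio between the libraries were those of SRSF5 (chr14:69766992-69767141, plus strand) and HNRNPM (chr19:8444825-8444974, plus strand). Each is written 5′ to 3′ on the gene's strand, and capitals mark the searched motifs.
HNRNPAB: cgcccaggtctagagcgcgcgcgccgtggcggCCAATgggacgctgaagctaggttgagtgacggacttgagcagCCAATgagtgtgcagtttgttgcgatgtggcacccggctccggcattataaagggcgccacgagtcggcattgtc
SRSF10: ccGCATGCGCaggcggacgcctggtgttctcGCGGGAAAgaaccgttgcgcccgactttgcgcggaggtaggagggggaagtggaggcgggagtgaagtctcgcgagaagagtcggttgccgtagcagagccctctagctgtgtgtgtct
SRSF3: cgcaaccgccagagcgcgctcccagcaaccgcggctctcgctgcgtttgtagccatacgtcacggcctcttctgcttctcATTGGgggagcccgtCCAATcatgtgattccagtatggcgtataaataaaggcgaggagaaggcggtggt
SRSF8: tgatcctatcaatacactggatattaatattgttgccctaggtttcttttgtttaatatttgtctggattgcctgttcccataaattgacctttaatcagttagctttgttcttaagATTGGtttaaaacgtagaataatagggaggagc
SRSF5: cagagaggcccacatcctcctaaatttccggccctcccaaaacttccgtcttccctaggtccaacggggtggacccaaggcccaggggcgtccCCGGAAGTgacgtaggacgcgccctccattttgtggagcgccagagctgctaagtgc
HNRNPM: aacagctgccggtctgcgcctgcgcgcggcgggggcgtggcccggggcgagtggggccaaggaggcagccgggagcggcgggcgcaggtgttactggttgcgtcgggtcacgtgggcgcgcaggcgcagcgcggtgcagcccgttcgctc
The motifs, searched on both strands, were CCAAT (the box that NF-Y binds), TTTGAA (the core of the cell cycle homology element), CCGGAAGT (bound by ETS factors), GCATGCGC (bound by NRF1) and an E2F-like set made up of TTTCCCGC or TTTCGCGC or TTTGCCGC or TTTGGCGC. No match of one overlapped a match of another, but CCAAT matches on both strands overlap in HNRNPU.

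A CCAAT match lay in 15 of the 29 member windows (51.7%) and in 35.7% of all 27305 windows of the table. Both CCAAT matches of HNRNPAB and both of SRSF3 lie in the stretches above, and SRSF8 has 1. The E2F-like set matched in 4 members (HNRNPA3, HNRNPK, HNRNPLL and SRSF10; 13.8%) against 3.33% of all windows. CCGGAAGT matched in 3 (HNRNPD, SRSF4 and SRSF5; 10.3%) against 4.44%, GCATGCGC in 1 (SRSF10; 3.45%) against 3.27%, and TTTGAA in 2 (HNRNPR and SRSF6; 6.90%) against 15.4%. The member windows had a median GC content of 64%, against 58.3% over all windows. The HNRNPM window held none of these letters. Among members with a window that were higher in S in both libraries, HNRNPAB and HNRNPF held CCAAT, and HNRNPD and SRSF4 held CCGGAAGT. SRSF10 held GCATGCGC and an E2F-like match, and SRSF7 held none.

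The members together took 0.857% of all UMIs in LNCaP_FGC and 0.631% in LNCaP_C4-2B, or 163 and 120 UMIs per cell. The SRSF genes took nearly equal shares, 0.171% and 0.162%. The difference in the sum thus lay in the HNRNP genes. Since 3′ counting gives about 1 UMI per captured transcript whatever its length, CPM was set side by side between genes without a length correction. Reads split between genes or missed, described further on, limit that comparison. CPM also does not tell apart splice forms of a gene, including those that contain a premature stop.

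Levels of the members ranged from 15.2 CPM (HNRNPLL) to 1064 CPM (HNRNPM) in LNCaP_FGC and from 11.1 CPM (HNRNPLL) to 788 CPM (HNRNPA2B1) in LNCaP_C4-2B. The 8 members with the highest mean level were all HNRNP genes. HNRNPM, an exon-silencing factor, was the first in LNCaP_FGC at 1064 CPM (95% interval 1053 to 1075) and the eighth in LNCaP_C4-2B at 347 CPM (341 to 353). HNRNPK stood at 846 and 352 CPM, second and seventh in the order.

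HNRNPA2B1 and HNRNPA1, close relatives that bind UAG-containing motifs and favour exon skipping, had nearly the same level in both libraries. HNRNPA2B1 was at 803 CPM in LNCaP_FGC and 788 CPM in LNCaP_C4-2B, and HNRNPA1 at 507 and 502 CPM. A pseudogene symbol, HNRNPA1P48, held 627 and 160 UMIs, so HNRNPA1 reads may be split with near-identical copies and its level is uncertain. HNRNPC stood at 535 and 417 CPM, HNRNPU, a nuclear scaffold protein, at 528 and 414 CPM, HNRNPA3 at 390 and 361 CPM, and HNRNPD, which also binds AU-rich elements of unstable mRNAs, at 344 and 355 CPM. The SRSF genes began lower, with SRSF3 (271 and 330 CPM) and SRSF9 (268 and 313 CPM) next after these in LNCaP_C4-2B and in LNCaP_FGC alike. The plot of levels shows the whole order. Neighbours in it had overlapping 95% intervals in 13 of 30 pairs in LNCaP_FGC and 14 of 30 in LNCaP_C4-2B.

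**Figure D1:**
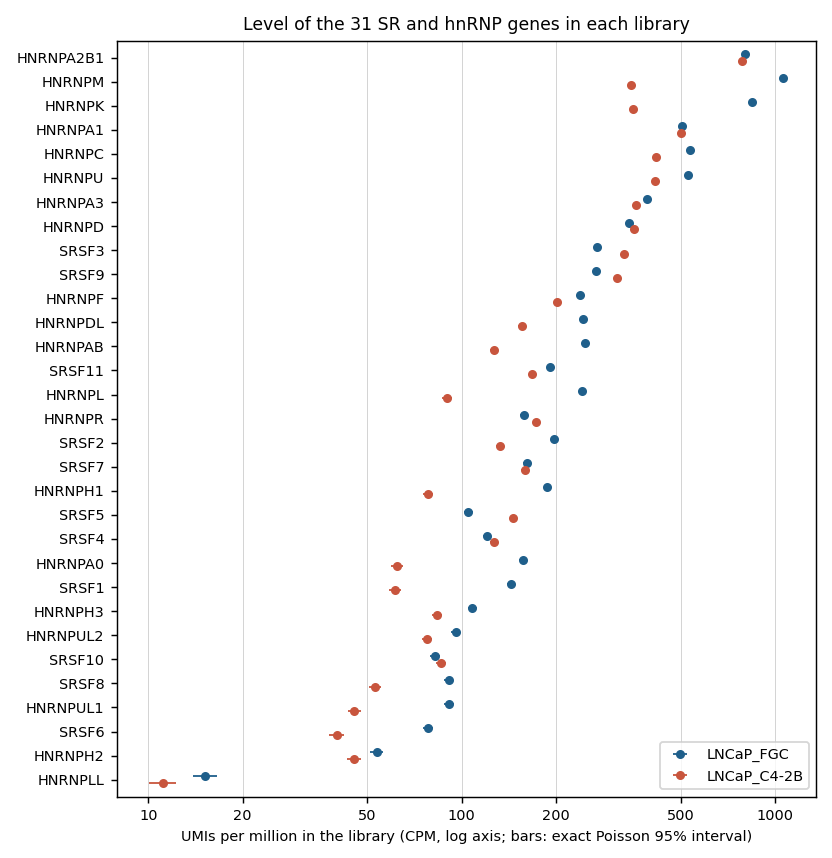
Level of each of the 31 genes (rows, ordered by mean) in CPM on a log axis, blue for LNCaP_FGC and red for LNCaP_C4-2B, with exact Poisson 95% intervals that are mostly narrower than the points. HNRNPM and HNRNPK lie far apart between the libraries, whereas HNRNPA2B1 (803 and 788 CPM) and HNRNPA1 (507 and 502 CPM) nearly coincide.

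The first comparison asked which members differed between the castration-resistant strain and its parental line. On the log2 scale the median gene stood at -0.43 (CPM of LNCaP_C4-2B over LNCaP_FGC), so each log2 ratio between the libraries is given relative to it, and a gene was counted at 1.5-fold or more from it. By that rule 3 members were higher in LNCaP_C4-2B (9.68%, against 22.8% of all genes tested), 6 were lower (19.4%, against 22.3%), and 22 lay within the limits. As a set the members were thus not called more often than other genes. On the unadjusted CPM scale none of the members was 1.5-fold higher and 11 were lower, against 11.2% and 41.7% of all genes tested. With totals that left out ribosomal protein and mitochondrial genes the split was 1 to 10, against 14.6% and 34.1%.

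All 3 higher members were SR genes. SRSF5, an SR protein with 2 RNA recognition motifs (chr14:69767142-69772005), was at 105 CPM in LNCaP_FGC and 146 CPM in LNCaP_C4-2B, a CPM ratio of 1.39 (95% interval 1.33 to 1.45) and a relative log2 ratio of 0.90. SRSF3, the small SR protein that also serves mRNA export, went from 271 to 330 CPM, a relative log2 ratio of 0.71. SRSF9 went from 268 to 313 CPM, a relative log2 ratio of 0.65. All 3 were above LNCaP_FGC on the CPM scale as well, although by less than 1.5-fold. Next in order, inside the limits, were HNRNPR (158 and 173 CPM, 0.55), SRSF4 (121 and 127 CPM, 0.50) and SRSF10 (82.4 and 85.9 CPM, 0.49).

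Of the 6 lower members 5 were HNRNP genes. HNRNPM (chr19:8444975-8489114) was 3.07-fold lower in LNCaP_C4-2B in CPM (3.004 to 3.13), a relative log2 ratio of -1.19. HNRNPL fell from 242 to 89.9 CPM (relative log2 ratio -1.005) and HNRNPA0, a small A-type hnRNP, from 157 to 62.3 CPM (-0.91). HNRNPH1 fell from 188 to 78.0 CPM and HNRNPK from 846 to 352 CPM, each with a relative log2 ratio of -0.84. SRSF1, the prototype SR protein, was the SR gene among them, at 143 and 61.3 CPM (-0.80). Just inside the limit lay HNRNPUL1, at 91.2 and 45.5 CPM (-0.58).

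Close relatives differed in their ratios. SRSF1 and SRSF9, both SR proteins with 2 RNA recognition motifs, had relative log2 ratios of -0.80 and 0.65. HNRNPH1 was at -0.84, HNRNPH2 (53.6 and 45.3 CPM) at 0.18, HNRNPH3 (108 and 83.6 CPM) at 0.05 and HNRNPF (238 and 202 CPM) at 0.18. Within the A group HNRNPA0 was at -0.91 while HNRNPA3, HNRNPA2B1 and HNRNPA1 lay between 0.32 and 0.41. HNRNPL was at -1.005 and HNRNPLL, its paralog with 15.2 and 11.1 CPM, at -0.02 (95% interval -0.22 to 0.17). HNRNPAB (-0.54) and HNRNPD (0.47) also lay on opposite sides of the median gene. On the CPM scale, where the median gene sits at -0.43, SRSF9, SRSF3, SRSF5, HNRNPR, SRSF4, SRSF10 and HNRNPD had ratios above 1 and the other 24 members ratios below 1.

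**Figure D2:**
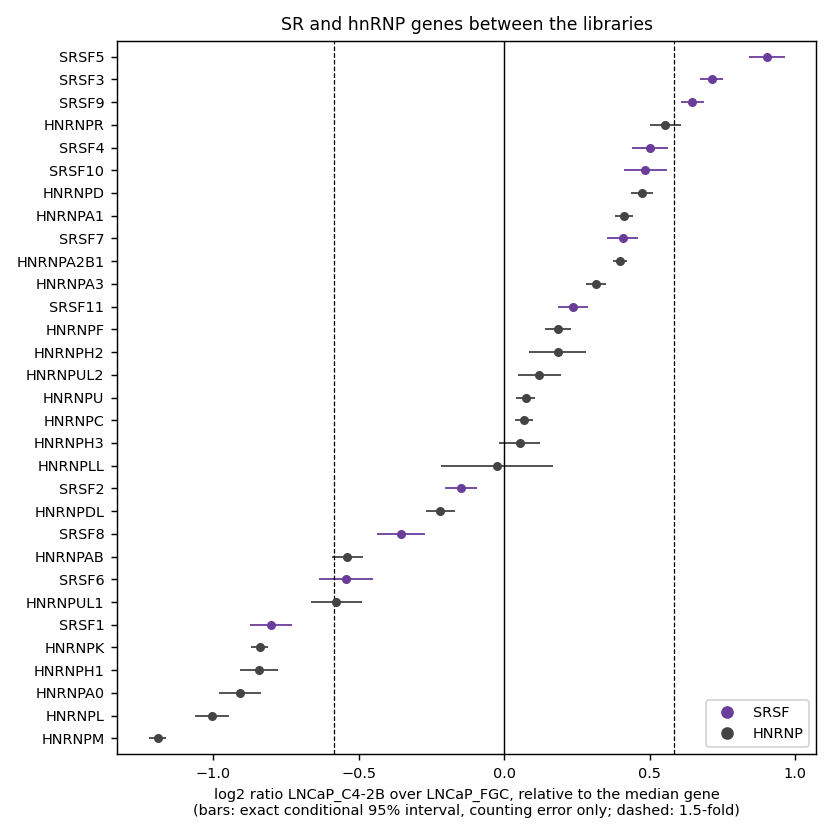
Log2 ratio of LNCaP_C4-2B over LNCaP_FGC relative to the median gene for each member, with exact conditional 95% intervals for counting error, SRSF genes in purple and HNRNP genes in dark grey, and dashed lines at 1.5-fold. SRSF5, SRSF3 and SRSF9 lie beyond the upper line and 6 genes, led by HNRNPM at -1.19, beyond the lower.

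These lines carry many copy number changes, so the neighbourhood of each called gene was looked up, a check chosen after seeing the data. Tested genes within 2 Mb of HNRNPM had a median relative log2 ratio of 0.33 (n = 67) and those near HNRNPL one of 0.12 (n = 71), against -1.19 and -1.005 for the genes themselves. Those near SRSF5 had a median of -0.46 (n = 17), against 0.90 for SRSF5. For the other 6 called genes the neighbours' median lay on the same side as the gene but nearer the median gene, at -0.43 for HNRNPA0 (n = 21), -0.44 for HNRNPH1 (n = 33), -0.23 for HNRNPK (n = 9), -0.16 for SRSF1 (n = 31), 0.21 for SRSF9 (n = 41) and 0.09 for SRSF3 (n = 30). Within cells called G1, S or G2M alone, the 9 called members kept their direction, HNRNPM at -1.11 in G1 and -1.26 in S. In S cells SRSF3 (0.56) and SRSF9 (0.57) were no longer 1.5-fold above the median gene.

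The second question was how the members depend on the cell cycle within each library. Cells were called by Seurat from 43 S and 54 G2M scoring genes, none of them a member. In LNCaP_FGC 804 cells (43.5%) were called G1, 463 (25.0%) S and 583 (31.5%) G2M, and in LNCaP_C4-2B 904 (48.9%), 390 (21.1%) and 556 (30.1%). The members took 0.737% of UMIs in G1, 0.949% in S and 0.939% in G2M cells of LNCaP_FGC, and 0.557%, 0.671% and 0.700% in LNCaP_C4-2B. Gene by gene, CPM was lowest in G1 for 27 of 31 members in LNCaP_FGC and 24 in LNCaP_C4-2B. No share over all genes is given for that count.

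Each phase was set against the other phases pooled, relative to the median gene, and a member was counted at a log2 ratio of 0.32 or more from it (25% above or 20% below). In G1 18 members were lower in LNCaP_FGC (58.1%, against 19.4% of all genes tested) and 13 in LNCaP_C4-2B (41.9%, against 19.2%), and 12 of them were lower in both. For overlaps between the libraries no share over all genes is given. A single member, SRSF8, was higher in G1 (3.23%), in both libraries, against 16.8% and 18.3% of all genes tested. In S 8 members were higher in each library (25.8%), against 13.2% and 15% of all genes. None was lower in S in LNCaP_FGC (background 12.7%) and 2 were in LNCaP_C4-2B (6.45%, background 15.9%). In G2M 7 were higher in LNCaP_FGC (22.6%, background 14%) and 5 in LNCaP_C4-2B (16.1%, background 14.2%), and none was lower (background 14.7% and 15.5%). The median member ratio (log2) was -0.37 in G1, 0.17 in S and 0.17 in G2M in LNCaP_FGC, and -0.29, 0.10 and 0.13 in LNCaP_C4-2B.

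Other measures moved with the phase calls. MALAT1, a long noncoding RNA of nuclear speckles and the most abundant of the nuclear RNAs listed, was at 28589 CPM in G1, 15765 in S and 14583 in G2M in LNCaP_FGC, and at 17480, 11491 and 12206 CPM in LNCaP_C4-2B. Median UMIs per cell were lowest in G1, 17532 against 19472 in S in LNCaP_FGC and 15823 against 20875 in LNCaP_C4-2B. Mitochondrial genes took 6.82% of UMIs in G1 and 5.79% in G2M cells of LNCaP_FGC, and 8.70% and 7.92% in LNCaP_C4-2B. Their part in the phase ratios was not tested. With cells thinned to a common depth each of the 12 phase counts stayed within 1.5 times its value. Of the single-gene phase ratios recomputed that way, 58 stayed close and 5 moved.

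The 7 members higher in S in both libraries were SRSF2, SRSF4, SRSF7, SRSF10, HNRNPAB, HNRNPD and HNRNPF. SRSF2, the speckle protein SC35, had the highest S ratio in each library. It was at 148 CPM in G1, 260 in S and 214 in G2M in LNCaP_FGC, and at 110, 185 and 125 CPM in LNCaP_C4-2B. Its CPM ratios of S over the other phases were 1.47-fold (95% interval 1.40 to 1.55) and 1.58-fold (1.49 to 1.68). The relative log2 ratios were 0.58 and 0.68. SRSF10, an SR protein that turns into a splicing repressor when dephosphorylated, followed with 62.8, 105 and 89.98 CPM in LNCaP_FGC and 66.9, 115 and 89.7 CPM in LNCaP_C4-2B. HNRNPAB was at 178, 305 and 294 CPM and at 98.9, 167 and 136 CPM, so in LNCaP_FGC its G2M level stayed near the S level. HNRNPD, at 248, 418 and 409 CPM and at 266, 426 and 423 CPM, had S and G2M levels near each other in both libraries.

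SRSF7, which carries a zinc knuckle beside its RNA recognition motif, was at 116, 195 and 194 CPM and at 129, 191 and 177 CPM. SRSF4 was at 94.2, 147 and 134 CPM and at 103, 158 and 137 CPM. HNRNPF was at 184, 292 and 267 CPM and at 162, 241 and 227 CPM. HNRNPU passed the S limit in LNCaP_FGC with 417, 635 and 588 CPM, and in LNCaP_C4-2B stood at 356, 466 and 454 CPM with a relative log2 ratio of 0.25. HNRNPLL, a regulator of CD45 splicing in lymphocytes, passed it in LNCaP_C4-2B with 9.45, 13.9 and 11.3 CPM, from the fewest UMIs of the members (relative log2 ratio 0.46, 95% interval 0.13 to 0.78).

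Members higher in G2M in both libraries were SRSF3, HNRNPUL1 and HNRNPUL2, the latter a pair of HNRNPU relatives with roles in the DNA damage response. SRSF3 was at 213 CPM in G1, 302 in S and 320 in G2M in LNCaP_FGC, and at 266, 332 and 416 CPM in LNCaP_C4-2B. Its CPM ratio of G2M over the other phases was 1.30-fold (1.24 to 1.35) and 1.44-fold (1.39 to 1.49), with relative log2 ratios of 0.33 and 0.45. HNRNPUL2 was at 79.3, 94.9 and 118 CPM and at 61.0, 80.9 and 97.4 CPM, and HNRNPUL1 at 74.3, 91.0 and 113 CPM and at 35.7, 50.9 and 54.8 CPM. HNRNPDL had the highest G2M ratio in LNCaP_FGC, with 185, 261 and 307 CPM (relative log2 ratio 0.48), and lay within the limits in LNCaP_C4-2B at 132, 171 and 176 CPM (0.19). HNRNPR, at 127, 179 and 183 CPM and at 137, 187 and 210.5 CPM, passed the G2M limit in LNCaP_C4-2B (0.37) and not in LNCaP_FGC (0.28). HNRNPAB, HNRNPD and SRSF7, described above, also passed the G2M limit in LNCaP_FGC, as did HNRNPH3 in LNCaP_C4-2B. HNRNPUL2 overlaps another coding gene of the annotation on the same strand, as do HNRNPH2, HNRNPL, SRSF1 and SRSF6, so their counts may miss shared reads.

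SRSF8 ran the other way. This gene arose as a processed copy of SRSF2, and reads of the pair may be split where their sequences match. It was at 105 CPM in G1, 76.8 in S and 84.6 in G2M in LNCaP_FGC, and at 60.3, 41.0 and 52.0 CPM in LNCaP_C4-2B. Its CPM ratio of G1 over the other phases was 1.29-fold (1.20 to 1.39) and 1.27-fold (1.16 to 1.40), with relative log2 ratios of 0.40 and 0.42. HNRNPH3, the other member lower in S in LNCaP_C4-2B, was at 77.1, 69.5 and 103 CPM there, but at 93.5, 114 and 123 CPM in LNCaP_FGC. The next highest G1 ratios were small. SRSF5 was at 113, 100.5 and 98.6 CPM in LNCaP_FGC (G1 relative log2 ratio 0.22) and at 143, 141 and 154 CPM in LNCaP_C4-2B (0.02), HNRNPH2 had G1 ratios of 0.17 and 0.04, and HNRNPC ones of -0.04 and 0.18.

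A group of members had no phase ratio past the limit in either library, namely HNRNPA1, HNRNPA2B1, HNRNPC, HNRNPH2, HNRNPK, HNRNPL, SRSF5, SRSF6, SRSF9 and SRSF11. It held the abundant HNRNPA2B1, at 698, 867 and 887 CPM and at 700.5, 800 and 897 CPM, as well as SRSF6, at 73.5, 79.6 and 83.0 CPM and at 39.1, 39.6 and 41.2 CPM. HNRNPK was at 795, 874 and 889 CPM and at 341, 331 and 381 CPM, and HNRNPL at 237, 249 and 244 CPM and at 84.7, 88.8 and 97.7 CPM. HNRNPM, HNRNPA0, HNRNPH1, HNRNPU, HNRNPDL and SRSF1 were lower in G1 in LNCaP_FGC and within the limits in LNCaP_C4-2B, HNRNPM with G1 ratios of -0.37 and -0.24. The difference between the libraries in these ratios was not tested. The phase of highest CPM was the same in both libraries for 21 members, a count given without a share over all genes. Across the 31 members the G1 ratios of the libraries had a Pearson r of 0.88, the S ratios 0.79 and the G2M ratios 0.63, given as a description, against 0.76, 0.53 and 0.57 across all genes.

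**Figure D3:**
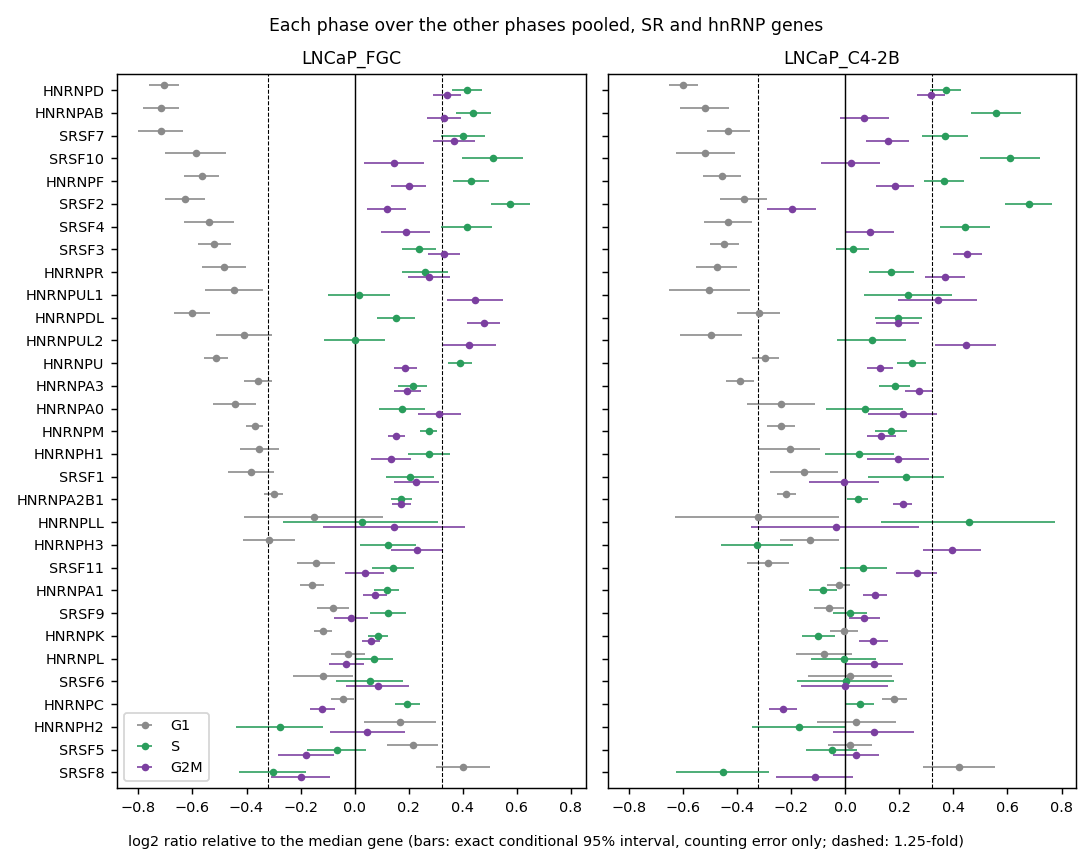
Log2 ratio of each phase over the other phases pooled, relative to the median gene, for each member in LNCaP_FGC (left) and LNCaP_C4-2B (right), with G1 in grey, S in green and G2M in purple, exact conditional 95% intervals for counting error and dashed lines at the limits of 0.32. G1 points lie to the left for most genes (median -0.37 and -0.29), while SRSF8 at the bottom has its G1 point on the right in both panels.

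Levels were also followed over the S score itself. The phase calls use the same score and the members given here had passed a phase limit, so this is no separate test. The cells of each library were ranked by S score and divided into 5 bins of 370 cells, an alternative chosen after seeing the data. SRSF2 rose from 130.5 CPM in the lowest bin to 276 CPM in the highest in LNCaP_FGC and from 97.9 to 177 CPM in LNCaP_C4-2B, with each bin above the one before. HNRNPAB rose from 154 to 332 CPM and from 82.0 to 166 CPM, and HNRNPD from 217 to 438 CPM and from 195 to 437 CPM. SRSF8 fell from 108 to 77.1 CPM and from 64.1 to 39.6 CPM. SRSF3 in LNCaP_C4-2B was highest in the fourth bin, at 404 CPM, and at 336 CPM in the fifth. The climbs were not particular to the S score, since bins of the G2M score gave rises too. From the lowest to the highest of those, HNRNPD went from 224 to 439 CPM and from 204 to 430 CPM. HNRNPAB went from 159 to 311 CPM and from 88.2 to 137 CPM, and SRSF2 from 138 to 222 CPM and from 105 to 123 CPM.

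**Figure D4:**
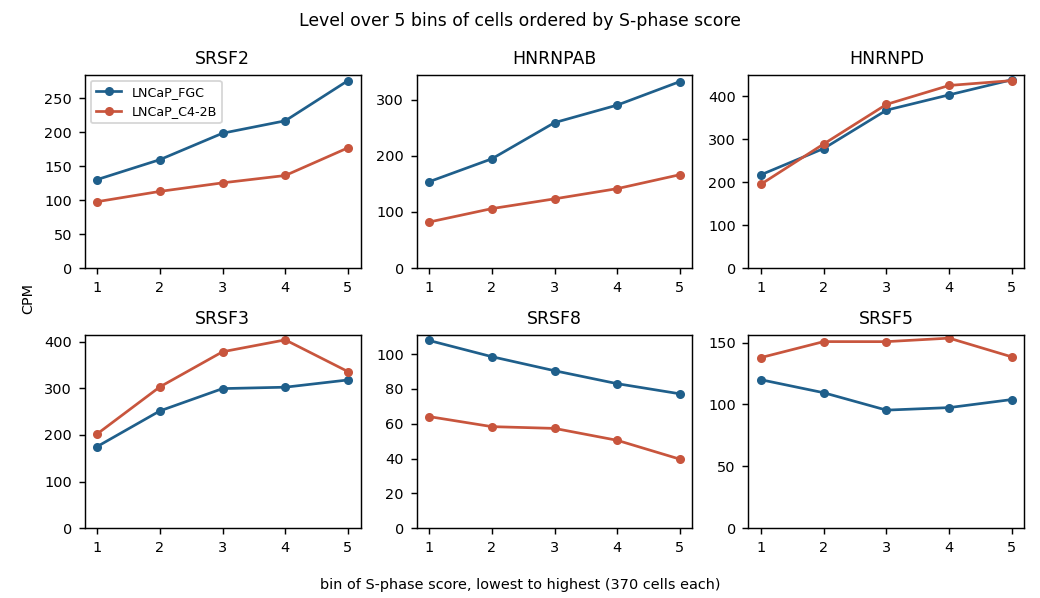
CPM of 6 members over 5 bins of 370 cells ordered from the lowest to the highest S score, blue for LNCaP_FGC and red for LNCaP_C4-2B, on linear axes that start at 0. SRSF2, HNRNPAB and HNRNPD climb in both libraries, SRSF8 declines (108 to 77.1 CPM and 64.1 to 39.6 CPM), and SRSF5 changes least from the lowest to the highest bin.

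Variation from cell to cell was measured as the variance of UMIs per cell over their mean, after thinning each cell to 11901 UMIs and leaving out shallower cells (1623 and 1665 cells kept). A value of 1 is what random sampling of molecules gives. Among members with a mean of at least 1 UMI the median was 1.32 in LNCaP_FGC (27 genes) and 1.26 in LNCaP_C4-2B (22 genes), against 1.19 and 1.16 over all genes with such a mean. Values of at least 2 were reached by 2 of the 27 and 1 of the 22, against 10.5% and 8.97% of all such genes. HNRNPA2B1 had the highest value in both libraries, 2.69 and 2.70, at 9.75 and 9.49 UMIs per cell. HNRNPM followed with 2.42 and 1.83, then HNRNPU (1.99) and HNRNPDL (1.74) in LNCaP_FGC and SRSF3 (1.76), HNRNPD (1.64) and HNRNPU (1.64) in LNCaP_C4-2B. Within G1 cells alone HNRNPA2B1 was at 3.05 and 3.11 and HNRNPM at 2.74 and 2.11, so these values were no lower within that phase.

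The lowest values were those of HNRNPLL (1.04 and 0.980), SRSF9 (1.06 and 1.05), HNRNPH2 (1.06 and 1.01), SRSF11 in LNCaP_FGC (1.05) and HNRNPUL1 in LNCaP_C4-2B (1.01). Below the mean of 1 UMI used above lay HNRNPLL (0.187 and 0.141 UMIs), HNRNPH2 (0.647 and 0.537) and HNRNPUL1 in LNCaP_C4-2B (0.541). SRSF9 stayed near 1 although its mean was 3.195 and 3.70 UMIs per cell, while SRSF3 at 3.30 and 4.002 UMIs was at 1.60 and 1.76. Members with high means mostly had high values, as HNRNPM (12.9 UMIs, 2.42) and HNRNPA2B1 (9.75 UMIs, 2.69) did in LNCaP_FGC. The order of the values did not follow that of the means throughout. In LNCaP_FGC HNRNPK, at a mean of 9.98 UMIs, had a value of 1.65, below HNRNPDL, and in LNCaP_C4-2B HNRNPA1 (5.95 UMIs) was at 1.39 and HNRNPC (5.08 UMIs) at 1.38, below SRSF3. The part of the mean in these values was not tested.

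**Figure D5:**
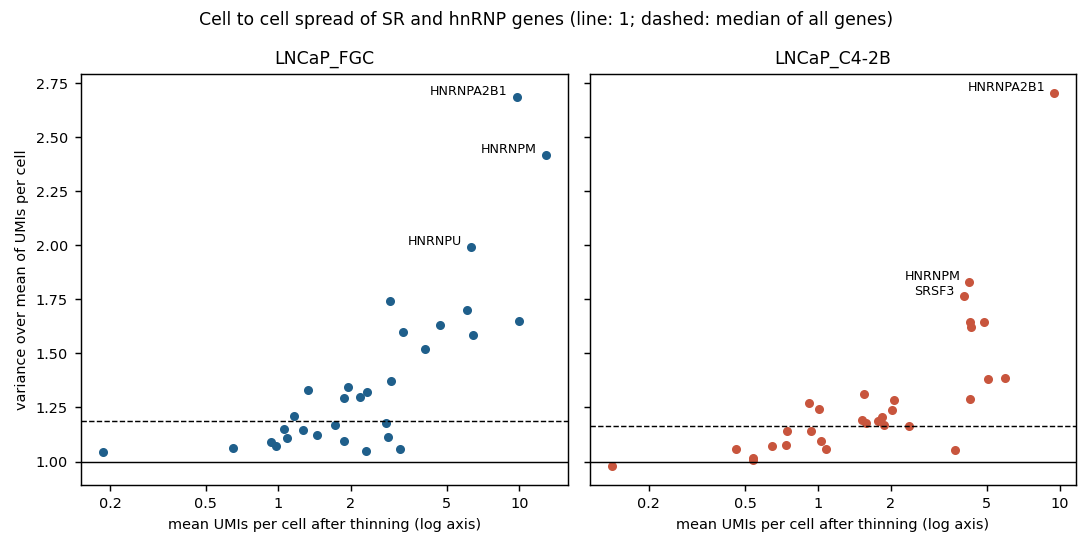
Variance over mean of UMIs per cell against the mean on a log axis, after thinning, 1 point per member in LNCaP_FGC (left) and LNCaP_C4-2B (right), with a solid line at 1, a dashed line at the median of all genes with a mean of at least 1 UMI, and the 3 highest members named. HNRNPA2B1 stands highest in both panels, at 2.69 and 2.70.

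Genes of the same machinery were described with the same limits, in 6 lists, beside 22.8% higher and 22.3% lower among all genes, whose median is 0 by construction. Among 23 tested hnRNP proteins with other symbols, 7 were lower in LNCaP_C4-2B and none was higher (median relative log2 ratio -0.23). RBMX, the X-linked hnRNP G, fell from 550 to 112 CPM (-1.87), and PTBP1, the polypyrimidine tract-binding repressor of exons, from 176 to 54.3 CPM (-1.27). Highest in that list were ILF2 (166 and 165 CPM, 0.42) and DDX17 (210 and 199 CPM, 0.34). In G1 14 of the 23 were lower in LNCaP_FGC and 8 in LNCaP_C4-2B, against 19.4% and 19.2% of all genes tested.

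Of 10 tested kinases and transport receptors of SR proteins 6 were lower in LNCaP_C4-2B (median -0.69), among them the import receptor TNPO2 (66.7 and 26.0 CPM, -0.94) and the kinase CLK1 (29.6 and 11.6 CPM, -0.93), while CLK3 was higher (27.1 and 35.8 CPM, 0.83). SRPK1, the cytoplasmic SR kinase, was at 115 and 128 CPM (0.57) and had G1 ratios of -0.52 and -0.40. Of 20 SR-related proteins 3 were lower and 1, SRRM2, was higher (279 and 374 CPM, 0.85). The lowest were SCAF11 (269 and 122 CPM, -0.72) and SON (425 and 199 CPM, -0.67). TRA2B, the partner of SR proteins at purine-rich enhancers, had a G1 ratio of -0.64 in both libraries and the highest S ratio of its list (0.56 and 0.57).

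The core spliceosome list held 61 tested genes, of which 13 were higher and 7 lower in LNCaP_C4-2B (median 0.21). LSM7 (204 and 409 CPM, 1.43) and LSM4 (238 and 379 CPM, 1.098) had the highest ratios and SNRPB2 (188 and 55.5 CPM, -1.34) and PRPF19 (89.3 and 33.5 CPM, -0.99) the lowest. In G1 24 of the 61 were lower in LNCaP_FGC and 23 in LNCaP_C4-2B, against 19.4% and 19.2% of all genes tested. LSM2 was at -0.82 and -0.86, and XAB2 was higher in both libraries (0.41 and 0.57). Of 13 tested tissue-restricted splicing regulators 2 were higher, NOVA1 from 15.3 to 176 CPM (11.5-fold, 95% interval 10.5 to 12.6), a regulator known from neurons, and ESRP1, an epithelial one, from 36.6 to 43.1 CPM (0.66). RBM47 (93.4 and 31.7 CPM, -1.13) and ESRP2 (34.7 and 15.6 CPM, -0.73) were lower. Of 15 genes of nonsense-mediated decay, the pathway that degrades mRNAs with premature stops, 3 were lower, among them RBM8A (745 and 314 CPM, -0.82) and SMG5 (21.99 and 9.87 CPM, -0.73). In G1, 5 of these 15 were lower in each library, as were 5 of the 20 SR-related proteins. Of the 10 kinases and transport receptors 2 were lower in LNCaP_FGC and 3 in LNCaP_C4-2B. Of the 13 tissue-restricted regulators 2 were lower in each.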

How the data were processed

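Cells of each line were profiled with 10x Genomics 3′ v3.1 chemistry. Per the submitters' processing notes, Cell Ranger 6.0, GRCh38 and Seurat 5.011 were used. The deposited matrices hold whole-number counts of UMIs. The authors filtered cells on genes, reads, hemoglobin, ribosomal and mitochondrial shares and doublet score, drew equal numbers of cells and thinned the counts to a mean of 19000 per cell, so depth before thinning is lost, and no further doublet call was made. The members and gene lists were chosen with earlier results of these data known.

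Counts were summed per library, or per library and phase, and scaled to CPM (1 UMI is 0.0284 CPM), with exact Poisson 95% intervals. Ratios have exact conditional (Clopper-Pearson) intervals. Calls were made at 1.5-fold between libraries and a log2 ratio of 0.32 between phases from the median of genes with at least 100 UMIs, the scoring genes being left out for phases. Phases were called with Seurat 5.3.0 (R 4.3.3) in each library. TMM factors came from edgeR 4.0.16, used for scaling only. Other steps ran in Python 3.11.15 with scipy 1.17.1. The 1.5-fold call between libraries and the interval of its ratio were tested on simulated Poisson counts. The lists came from general knowledge of the splicing machinery.

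Every member was accounted for. Named with values were the 8 most abundant, the 6 highest and 6 lowest library ratios, the 4 highest ratios of each phase, the 4 highest and 4 lowest spreads, and up to 2 genes at the ends of each related list with at least 20 CPM, a few of which are not reported here. Other members were named as relatives of these or as members past a limit, and HNRNPUL1 for lying just inside one. Positions came from RefSeq (GRCh38.p14) and overlaps from GENCODE. Protein sequences were planned as a source and not used here. Alternatives covered scaling, floors, folds, phase calling and depth.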

Additional observations from a re-analysis of the deposited data

Results flagged for a closer look

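HNRNPH3 was the member whose S-phase ratio lay on opposite sides of the median gene in the 2 libraries while passing the limit for a phase call in one. Its log2 ratio of S over the other phases, relative to the median gene, was 0.124 in LNCaP_FGC and -0.3258 in LNCaP_C4-2B. The difference was not tested, since each line gave 1 library.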

How the results depend on the processing

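No ratio recomputed changed its direction under any alternative run, and of the values recomputed 102 of the counts and medians and 647 of the single-gene ratios stayed close to those reported, while 46 and 100 moved. Between the libraries, unadjusted CPM gave 0 higher and 11 lower members, against 11.2% and 41.7% of all genes. Totals without ribosomal protein and mitochondrial genes gave 1 and 10, against 14.6% and 34.1%. A limit of 0.32 on the log2 scale gave 10 and 10, against 33.8% and 33.7%. A limit of 2-fold gave 0 and 2, against 11.3% and 11.1%. S cells alone gave 1 higher member, against 23.5%. The median gene itself moved by -0.43 in CPM, -0.27 with the reduced totals, 0.06 with TMM and 0.04 with median-of-ratios factors. For the phase counts under the alternatives that follow, no share over all genes is given. They show how the calls move and are not read as a result about the members. For the phases in LNCaP_FGC, S against G1 gave 16 higher and 1 lower and G2M against G1 gave 18 higher and 1 lower. In LNCaP_C4-2B the same settings gave 14 higher and 1 lower in S and 11 higher in G2M. Unadjusted CPM gave 1 member lower in S in LNCaP_FGC and 8 higher in G2M in LNCaP_C4-2B. A limit of 1.1-fold gave, in LNCaP_FGC, 3 higher in G1, 19 higher and 2 lower in S and 19 higher and 2 lower in G2M, and in LNCaP_C4-2B 2 higher and 21 lower in G1, 15 higher in S and 14 higher and 2 lower in G2M. A limit of 1.5-fold gave, in LNCaP_FGC, 0 higher and 6 lower in G1 and 0 higher in S and G2M, and in LNCaP_C4-2B 0 higher and 1 lower in G1, 2 higher and 0 lower in S and 0 higher in G2M. Lower limits and the phase against G1 alone admit or change genes by construction; for the others the cause was not tested. A floor of 10 UMIs, which admits 2 further genes, gave 2 higher in G1 and 1 lower in G2M in each library. Scoring both libraries together, or leaving out cells within 0.05 of another call, gave 1 lower in S in LNCaP_C4-2B, and leaving out the 10% of cells with most UMIs gave 1 lower in S in LNCaP_FGC. Without thinning the median variance over mean was 1.64 in LNCaP_FGC and 1.53 in LNCaP_C4-2B. No paired analysis was possible because each line gave 1 library. Counting error is widest for HNRNPLL, with 534 and 391 UMIs, and 1 library per line gives no measure of the spread between cultures.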
